A study of Mus musculus with 40 samples.

Results

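The genes described here encode the pore-forming and auxiliary subunits of the voltage-gated sodium and calcium channels and of the potassium channels. They were chosen by symbol (the sodium channel genes Scn, the calcium channel genes Cacna1, Cacna2d, Cacnb and Cacng, and the potassium channel genes Kcn), with the added condition of 10 or more counts in at least 35 of the 39 samples used. Of the 55539 features listed, 131 had a matching name, and 104 of these were among the 15224 features that met the count condition. RNA was sequenced from bulk left somatomotor cortex. The mice were female 3xTg-AD on C57BL/6J, aged 2 to 4 months. This strain carries human APP and MAPT transgenes, driven mainly in neurons by the Thy1 promoter, so every group including the sham-injured mice (Sham) shared these alleles as well as isoflurane anesthesia. Closed-head injury (CHI) was a weight drop onto the head with the skull intact, given once a day. After 1xCHI, tissue was collected at 30 min (n = 3), 4 h (n = 3) or 24 h (n = 4), after 3xCHI at 30 min (n = 3), 4 h (n = 2) or 24 h (n = 4), and after 5xCHI at 30 min (n = 3), 4 h (n = 3) or 24 h (n = 4). Mice with 2xCHI and 4xCHI were collected at 24 h (n = 3 each), and Sham (n = 4) was anesthetized without injury. At 4 h after 3xCHI a further sample, number 30, was not used: the study removed 1 sample, which its sample sizes place in this group, but the sources used here do not give its number. Samples are named below by the numbers 1 to 40 in their labels.

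Sodium channels carry the rising phase of the action potential, and their alpha subunits are gathered at the axon initial segment and nodes of Ranvier by ankyrin G. Calcium channels turn depolarization into calcium entry, at synapses through the P/Q and N types and in dendrites through the L, R and T types, while potassium channels repolarize the membrane, set its resting potential and, in astrocytes, take up the potassium that active neurons release. Ionic flux across the membrane is a known early event after concussive injury, and the comparisons below ask whether the mRNAs of these channels differed after 1 to 5 injuries and over the first day after an injury.

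The deposited values were estimated counts, which summed to 15926014 to 27859547 per sample (median 19028778). Levels are given as CPM (counts scaled to a common library total) on library sizes scaled by the trimmed mean of M-values (TMM), and between genes as CPM per kilobase of exon. Samples of the same group were separate libraries, since each of the 46 pairs differed beyond sampling noise, with a chi-square per gene of at least 6.85. The tissue carried cortical markers in every sample: Slc17a7, the glutamate transporter of cortical excitatory neurons, lay at 925 to 1358 CPM, and Tbr1, a deep-layer cortical factor, at 105 to 158 CPM. Samples 10 (5xCHI 4 h) and 11 (5xCHI 24 h) stood apart: their astrocyte list summed to 6910 and 7690 CPM against 3225 to 5343 CPM in the others, the microglia list to 804 and 1017 CPM against 278 to 484 CPM, and the pan-neuronal list to 7604 and 7398 CPM against at least 8564 CPM. Fewer cells of a type and less RNA per cell cannot be told apart in bulk tissue. Expression also differed between samples 1 to 18 and samples 19 to 40, a position that the labels do not name as a batch. The samples used of 2xCHI and of 4xCHI at 24 h all carry numbers from 19 to 40 and those of 3xCHI at 4 h are samples 1 and 3, so that for 3xCHI at 4 h against 2xCHI at 24 h injury and sample number cannot be told apart. The other groups hold numbers of both ranges, and Sham holds sample 6 of the first range and samples 20, 35 and 39 of the second.

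Every class of channel was represented among the 104 genes, from 3 of 3 T-type calcium channel genes to 15 of 17 Kv1 to Kv4 pore subunits. Together they took 0.752 to 1.18% of all counts in a sample. Their median level was 10.2 CPM per kilobase against 5.13 for all features tested, and 62 of the 104 lay above that all-feature median. The 27 matching genes that missed the condition were largely those known from heart, skeletal muscle, sensory neurons, retina or epithelia, such as Scn4a, Scn10a, Cacna1f, Cacng1, Kcnq1 and Kcnj1, and 2 of them had no count in any sample. Just inside the condition were Kcne4 (36 samples with 10 or more counts), Kcnj13 (37) and Kcna3 (38), and just outside were Kcnk5 (31), Cacng6 (26), Kcnmb1 (26) and Kcng3 (19). Counts this low leave wide errors on Kcne4, Kcnj13 and Kcna3.

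**Figure D1:**
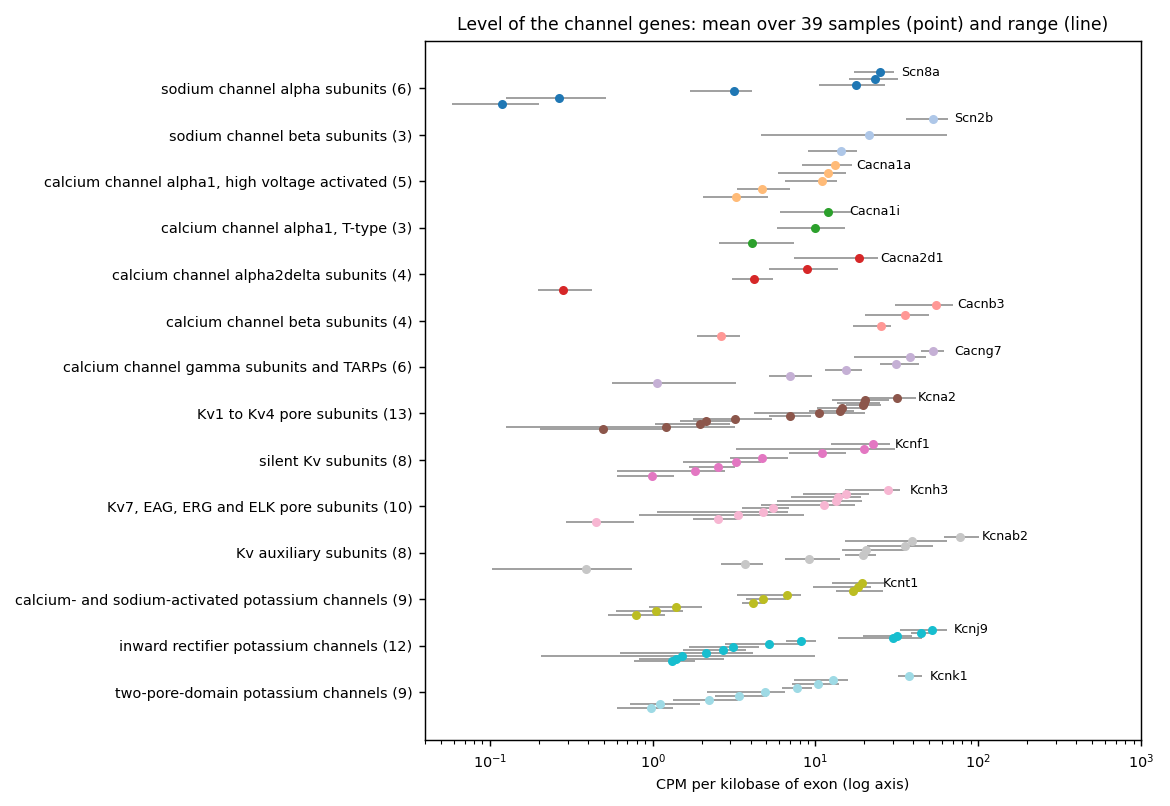
Mean level of each channel gene described here over 39 samples (points) with the range over samples (lines), in CPM per kilobase of exon on a log axis, by class with the number of genes drawn in parentheses. Kcnab2 is highest among those drawn, at 77.8 CPM per kilobase, and Scn9a lowest, at 0.118.

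Among the sodium channel alpha subunits, 6 of 10 genes met the condition and summed to 69.1 ± 11.5 CPM per kilobase (SD, n = 39). The main subunits of adult cortex led: Scn8a (Nav1.6) at 24.8, Scn2a (Nav1.2) at 23.1 and Scn1a (Nav1.1, the main subunit of fast-spiking interneurons) at 17.7 CPM per kilobase. Scn3a, high in the embryonic brain, stood at 3.17 and Scn9a (Nav1.7), best known from pain neurons, at 0.118, the lowest of the class. Among the beta subunits, which tether and tune the alpha subunits, Scn2b had 52.5, Scn4b 21.4 and Scn3b 14.4 CPM per kilobase.

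The 5 high-voltage-activated calcium channel pores summed to 44.1 ± 5.24 CPM per kilobase. Cacna1a (the P/Q type of presynaptic terminals) was highest at 13.2 and the L-type gene Cacna1c lowest at 3.26, with Cacna1e (R type) at 10.9. The T-type genes summed to 26.0 ± 3.36, from Cacna1i at 11.9 and Cacna1g at 9.96 to Cacna1h at 4.09 CPM per kilobase. Of the auxiliary subunits, the beta genes that bring the pore to the membrane summed to 118 ± 13.5, led by Cacnb3 at 55.1 and Cacnb4 at 35.3, with Cacnb2 lowest at 2.64. The alpha2delta genes summed to 31.7 ± 5.71, from Cacna2d1 (the binding site of gabapentin) at 18.4 to Cacna2d4 at 0.281. The gamma family, most of whose brain members are TARPs (proteins that traffic AMPA-type glutamate receptors), summed to 146 ± 7.87. Cacng7 led it at 53.0, Cacng3 stood at 38.3 and Cacng2 (stargazin) at 31.2, and Cacng5 closed it at 1.06 CPM per kilobase.

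Voltage-gated potassium channels made up the broadest set. The Kv1 to Kv4 pores summed to 197 ± 27.8 CPM per kilobase, with Kcna2 (Kv1.2, a juxtaparanodal and axonal channel) at 31.7, Kcnc1 (Kv3.1 of fast-spiking cells) at 20.2, Kcnd2 (Kv4.2, the dendritic A current) at 19.8 and Kcna5 lowest at 0.497. The silent subunits, which form no channel alone but change Kv2, summed to 66.9 ± 9.77, from Kcnf1 at 22.6 to Kcng2 at 0.992. In the group of Kv7 (M current) and the EAG, ERG and ELK channels the sum was 126.0 ± 17.8, with Kcnh3 at 28.0 on top, Kcnq3 at 13.8 and Kcnh6 lowest at 0.450. Auxiliary Kv subunits summed to 205 ± 19.5, from Kcnab2 (a Kv1 beta subunit) at 77.8 to Kcne4 at 0.391 CPM per kilobase, and Kcnip3, a calcium sensor of Kv4, stood at 20.4.

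The potassium channels opened by calcium or sodium summed to 73.3 ± 4.57 CPM per kilobase, headed by the sodium-activated Kcnt1 (Slack) at 19.3, Kcnma1 (the BK pore) at 18.2 and its neuronal beta subunit Kcnmb4 at 17.0. Kcnn2 (SK2, a channel of the medium afterhyperpolarization) stood at 4.73, and Kcnu1, known from sperm, was lowest at 0.794. Inward rectifiers summed to 184 ± 13.0. The G-protein-gated subunit gene Kcnj9 led at 52.2 and Kcnj3 had 31.6, while the astrocytic Kir4.1 gene Kcnj10 had 30.1, its partner Kcnj16 had 5.20 and the vascular Kcnj8 had 1.32. Leak channels with a pair of pore domains (K2P) summed to 80.9 ± 4.94, from Kcnk1 at 37.5 to Kcnk10 at 0.980, with Kcnk2 (TREK-1, opened by stretch and lipids) at 10.4 CPM per kilobase.

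Variation over samples was slightly larger than for genes at large. The median coefficient of variation (CV) was 17.3% over the 104 members and 15.0% over all features tested. Least variable were Cacng7 (6.85%), Kcnj4 (7.58%), Kcnk1 (7.87%) and Kcnn1 (8.84%). A CV above 50% was reached by 4 members, namely Kcnj13 (125%), Kcna3 (64.2%), Kcnh5 (61.7%) and Scn4b (54.6%), whose highest and lowest samples differed 47.7-, 25.3-, 10.3- and 13.8-fold. Sample 11 held the lowest value of 48 of the 104 members and the highest of 7, and sample 16 (1xCHI 4 h) came next with the lowest value of 14. Among class sums, the ratio of the highest to the lowest sample ran from 1.31 for the K2P channels and 1.33 for the inward rectifiers to 2.63 for the silent subunits and 2.65 for the alpha2delta subunits.

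The start regions of the most variable members are printed below, and they differ in base composition. Each is the 250 bases before the transcription start in RefSeq (GRCm38.p6), written 5′ to 3′ in the direction of transcription. The windows shown are those of the 3 members with the highest CV, chosen after their values were seen. In Kcnj13 (chr1:87394730-87394979, minus strand) capitals mark the letters TATAAA, 29 bases before the start. In Kcna3 (chr3:107035912-107036161, plus strand) and Kcnh5 (chr12:75177333-75177582, minus strand) capitals mark CG dinucleotides.
Kcnj13: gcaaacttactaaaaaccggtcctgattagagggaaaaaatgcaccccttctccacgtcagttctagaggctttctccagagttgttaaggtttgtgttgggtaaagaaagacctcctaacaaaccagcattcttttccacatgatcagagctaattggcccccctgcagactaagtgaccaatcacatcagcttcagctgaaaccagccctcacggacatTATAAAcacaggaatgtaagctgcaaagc
Kcna3: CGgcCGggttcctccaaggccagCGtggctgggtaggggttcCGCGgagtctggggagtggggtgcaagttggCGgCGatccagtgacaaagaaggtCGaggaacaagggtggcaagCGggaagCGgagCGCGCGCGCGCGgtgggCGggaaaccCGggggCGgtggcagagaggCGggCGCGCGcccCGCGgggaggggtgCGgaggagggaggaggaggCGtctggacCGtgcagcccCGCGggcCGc
Kcnh5: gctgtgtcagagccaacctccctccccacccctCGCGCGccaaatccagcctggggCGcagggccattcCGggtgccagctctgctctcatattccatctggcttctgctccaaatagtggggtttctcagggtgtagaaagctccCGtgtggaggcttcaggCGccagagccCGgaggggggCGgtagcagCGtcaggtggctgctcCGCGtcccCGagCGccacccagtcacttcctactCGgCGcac

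Kcnj13 held 3 CG dinucleotides and 45.2% GC, Kcna3 held 31 and 74.4%, and Kcnh5 held 16 and 65.6%. RefSeq windows were found for 74 of the 104 members, 108 windows in all among 14325 of the features tested. Their median GC was 58.8% against 59.6% for all features, and 36.1% of them against 61.9% for all features had an observed to expected CpG ratio above 0.6. On either strand, TATAAA occurred in 5 of the 108 windows (4.63%, against 6.6% of all windows), those of Cacna1d, Kcnj13, Kcnj16, Kcnj9 and Scn2a. The AP-1 letters TGANTCA occurred in 4 (3.7% against 4.31%), in Cacng5, Kcnip3, Kcnip4 and Kcnk2, the CRE letters TGACGTCA in 0 (against 2.54%), and TTCAGCACC, the left part of the RE1 element, in 1 (0.926% against 0.335%), in Kcnh6. Each motif was searched on its own, and a match is a run of letters and not a known site.

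The injury numbers, with time points combined, were first compared with Sham. No channel gene passed edgeR's quasi-likelihood test at a Benjamini-Hochberg adjusted p under 0.05 in any of the 5 comparisons (0 of 104 in each), nor did any of the 15224 features (0% called). DESeq2 also called 0 members in each. At an unadjusted p under 0.05, 10 members stood out after 1xCHI (9.62% of the members against 17.2% of all features), of which 9 were lower (6.33% of all features were) and 1 was higher (10.9%), 2 after 2xCHI (1.92% against 4.45%), 2 after 3xCHI (1.92% against 3.86%), 2 after 4xCHI (1.92% against 1.7%) and 10 after 5xCHI (9.62% against 11.6%), of which all were lower (4.07% of all features were) and 0 higher (7.51%). The share was below that of all features in each comparison but 4xCHI. All 5 comparisons share the 4 Sham samples.

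The fitted values nevertheless lay mostly on the lower side. Below 0 were 84 of 104 members after 1xCHI (80.8%, against 47.5% of all features), 75 after 2xCHI (72.1% against 50%), 89 after 3xCHI (85.6% against 50.1%), 84 after 4xCHI (80.8% against 51.8%) and 84 after 5xCHI (80.8% against 47.5%). The median log2 fold change over the members was -0.14, -0.09, -0.10, -0.10 and -0.11 in the same order, where the median over all features lay between -0.01 and 0.01. Single samples moved some of these medians: that of 2xCHI was -0.042 without Sham sample 39 and -0.049 without Sham sample 35, that of 4xCHI was -0.026 without sample 25, -0.056 without sample 39 and -0.058 without sample 35, and that of 5xCHI was -0.061 without samples 10 and 11. With the same Sham samples in each, these values are not independent of each other, and the median deviation of the members varied between samples of a group by an SD of 0.147, no smaller than these medians. Other lists moved beside the members: at an unadjusted p under 0.05, 13 of 13 mitochondrial genes were higher after 1xCHI (median 0.43, where 10.9% of all features were higher). After 5xCHI 5 of 10 astrocyte and 6 of 10 microglia genes were higher (7.51% of all features were). Within 5xCHI the microglia list summed to 804 and 1017 CPM in samples 10 and 11 and to 340 to 451 CPM in the others. The astrocyte list summed to 6910 and 7690 CPM in those samples and to 3841 to 5343 CPM in the others. The part of these lists in the members' values was not tested. The 95% interval of the fold change stayed within 2-fold for 98, 93, 97, 95 and 97 of the 104 members, so that a 2-fold change lay outside the interval for nearly every one.

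**Figure D2:**
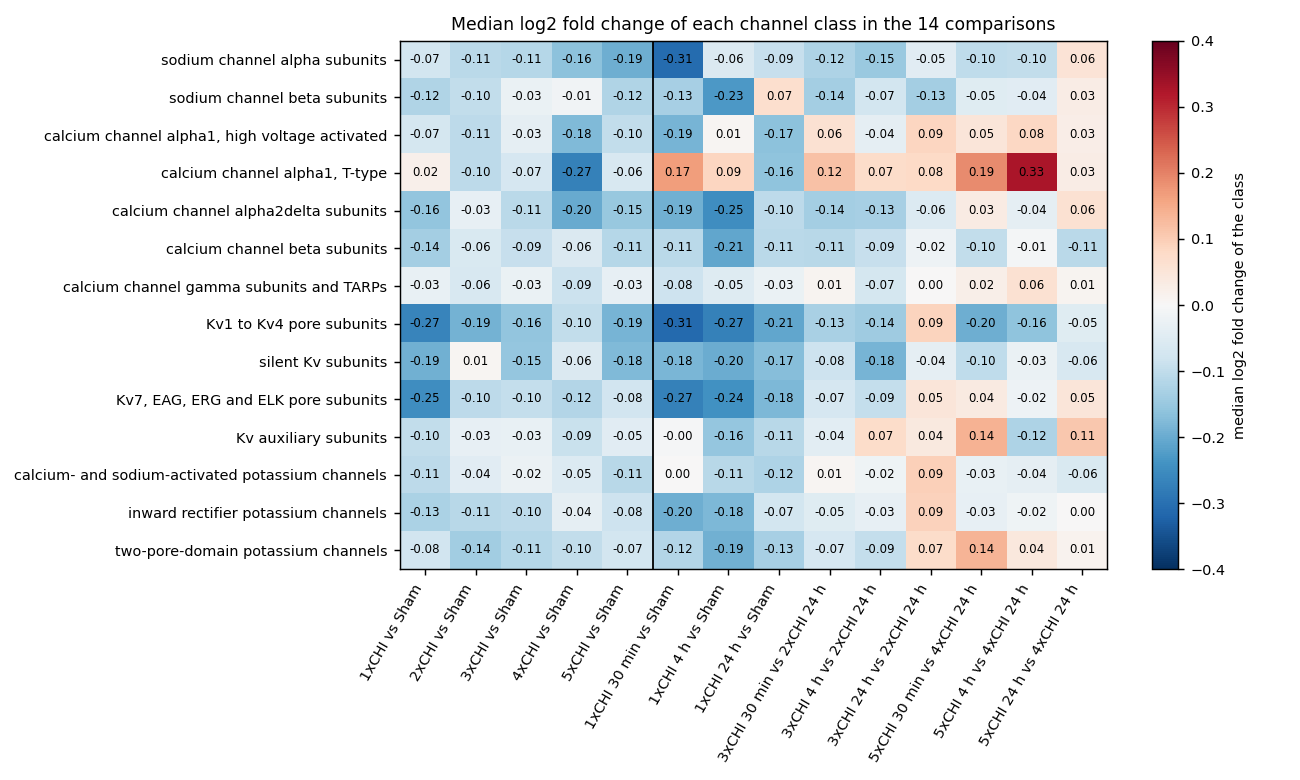
Median log2 fold change of each channel class (rows) in the 5 comparisons with Sham, left of the line, and the 9 comparisons of a time point with the group before that injury (columns). Values run from -0.31 for the Kv1 to Kv4 pores and the sodium channel alpha subunits 30 min after 1xCHI to 0.33 for the 3 T-type genes 4 h after 5xCHI.

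By class, the Kv1 to Kv4 pores had the lowest median after 1xCHI (-0.27, with 14 of 15 genes below 0), followed by the Kv7 and EAG group (-0.25, 9 of 11) and the silent subunits (-0.19, 8 of 8). Nearest to 0 at 1xCHI were the T-type genes (0.02) and the gamma subunits (-0.03). After 3xCHI all 15 Kv1 to Kv4 pores and all 11 genes of the Kv7 and EAG group were below 0, with medians of -0.16 and -0.10, and all 6 sodium channel alpha subunits were below 0 at a median of -0.11. After 5xCHI the alpha subunits (-0.19), the Kv1 to Kv4 pores (-0.19) and the silent subunits (-0.18) were lowest. No class was tested as a set.

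Among the sodium channels, Scn1a had 184, 206, 277 and 299 CPM in Sham and 116 to 289.5 CPM over the 10 samples after 1xCHI, with a log2 fold change of -0.42 and overlapping groups. Scn2a (-0.18) and Scn8a (-0.13) were nearer to 0 after 1xCHI, and over the 5 comparisons they ran from -0.18 to 0.00 and from -0.16 to -0.06. Scn4b, which drives resurgent current and is abundant in striatum, was at 93.7, 94.9, 111 and 258 CPM in Sham. After 1xCHI it ran from 23.2 CPM in sample 16 to 319.6 CPM in sample 26, so that the groups overlapped widely. Scn3b stayed between -0.11 and 0.14 in the comparisons with Sham.

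Scn9a was next after Cacna2d2 and Kcnt1 in order of p after 4xCHI, at 0.743 to 1.26 CPM against 1.00 to 2.20 CPM in Sham (log2 fold change -0.74, SE 0.38, adjusted p 1.0 by the same test). Its counts were among the lowest of the members.

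The calcium channel pores had small fold changes. Cacna1a lay between -0.20 and -0.12 in the comparisons with Sham, Cacna1e between -0.12 and -0.03 and Cacna1c between -0.21 and -0.03. Cacna1h ran from -0.37 after 2xCHI to 0.21 after 1xCHI, and Cacna1g from -0.33 after 4xCHI to 0.02. Of their auxiliary subunits, Cacna2d1 ran from -0.19 to 0.02 and Cacnb4 from -0.29 to -0.07, while Cacna2d2 had the smallest p of the members after 4xCHI. That gene had 31.3, 33.1, 34.1 and 43.7 CPM in Sham and 25.0, 29.3 and 33.9 CPM after 4xCHI, overlapping groups with a log2 fold change of -0.27 (SE 0.12, unadjusted p 0.0294, adjusted p 1.0 by edgeR's quasi-likelihood test, Benjamini-Hochberg adjusted). Without Sham sample 39 it was -0.15, and without sample 25 of 4xCHI -0.16. Cacng4, a TARP, was on the lower side in all 5 comparisons. Its Sham samples had 27.7, 27.8, 27.9 and 33.0 CPM, and the 9 samples after 3xCHI had 18.6 to 25.0 CPM (median 23.9).

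Each of those 9 samples was below all 4 Sham samples. The log2 fold change of Cacng4 after 3xCHI was -0.35 (SE 0.11, 95% interval -0.57 to -0.12), with an unadjusted p of 0.00319 and an adjusted p of 0.911 by edgeR's quasi-likelihood test, Benjamini-Hochberg adjusted. After 2xCHI it was -0.33 and after 5xCHI -0.27, against the same Sham samples. The other TARPs were flatter: Cacng2 ran from -0.09 to 0.12, Cacng7 from -0.03 to 0.11, and Cacng3 from -0.25 after 5xCHI to -0.02.

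The Kv3 genes Kcnc1 (-0.30) and Kcnc2 (-0.28) were at an unadjusted p under 0.05 after 1xCHI.

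Kcnj10 (Kir4.1), the astrocytic inward rectifier that buffers potassium, was among the members with the smallest p after 1xCHI. It had 179, 183, 194 and 206 CPM in Sham. After 1xCHI it ran from 74.7 CPM in sample 16 to 213.5 CPM in sample 36 (median 142), and every one of the 10 samples but sample 36 was below all of Sham. The log2 fold change was -0.44 (SE 0.18, unadjusted p 0.0203, adjusted p 0.249 by edgeR's quasi-likelihood test, Benjamini-Hochberg adjusted), and within samples 19 to 40 alone it was -0.14. Its partner subunit gene Kcnj16 was at -0.19 after 1xCHI and between -0.07 and 0.17 in the other comparisons with Sham. The astrocyte list moved with it: it summed to 4164 to 5305 CPM in Sham, to 3225 CPM in sample 16, the lowest of the 39 samples, and to 5340 CPM in sample 36, with a mean of 3926 CPM at 30 min after 1xCHI, 4374 CPM at 4 h and 4075 CPM at 24 h, against 4747 CPM in Sham. In samples 10 and 11, where that list was highest, Kcnj10 had 219 and 243 CPM. The part of the astrocyte markers in the lower Kcnj10 values was not tested.

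After 5xCHI the smallest p belonged to Kcng1 (Kv6.1, a silent subunit). It had 14.6, 18.8, 18.9 and 20.8 CPM in Sham and 6.89 to 17.0 CPM in the 10 samples after 5xCHI, which overlapped only through the lowest Sham sample, number 39. The log2 fold change was -0.53 (SE 0.18, 95% interval -0.89 to -0.16, unadjusted p 0.0063), with an adjusted p of 0.372 by edgeR's quasi-likelihood test, Benjamini-Hochberg adjusted. Without samples 10 and 11 it was -0.44. Kcnab1 (a Kv1 beta subunit) followed with 77.5 to 111 CPM in Sham, 56.1 to 86.3 CPM after 5xCHI and a log2 fold change of -0.37 (SE 0.14, adjusted p 0.374 by the same edgeR test), or -0.38 without samples 10 and 11. Kcnd2 stood at -0.29 after 5xCHI, at -0.22 without those samples and at -0.15 within samples 19 to 40 alone. Kcnab1 and Kcnd2 also held the next smallest p after 3xCHI, behind Cacng4, at -0.33 and -0.23, against the same Sham samples, and with sample number as a covariate Kcnd2 was there at -0.10.

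The other potassium channels gave smaller or less regular values. In the comparisons with Sham, the axonal Kcna2 ran from -0.27 to -0.05 and the M-current gene Kcnq3 from -0.25 to -0.04. Kcna1 (Kv1.1) ran from -0.66 to -0.27, but its Sham samples alone spread from 40.1 to 93.0 CPM. The sodium-activated Kcnt1 was on the lower side after 4xCHI alone (-0.35, SE 0.17), with 119.5, 127 and 154 CPM against 147 to 189.6 CPM in Sham, and between 0.07 and 0.19 in the other 4 comparisons. K2P channels stayed close to Sham, with Kcnk1 between -0.13 and -0.01 and Kcnk2 between -0.11 and 0.19.

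**Figure D3:**
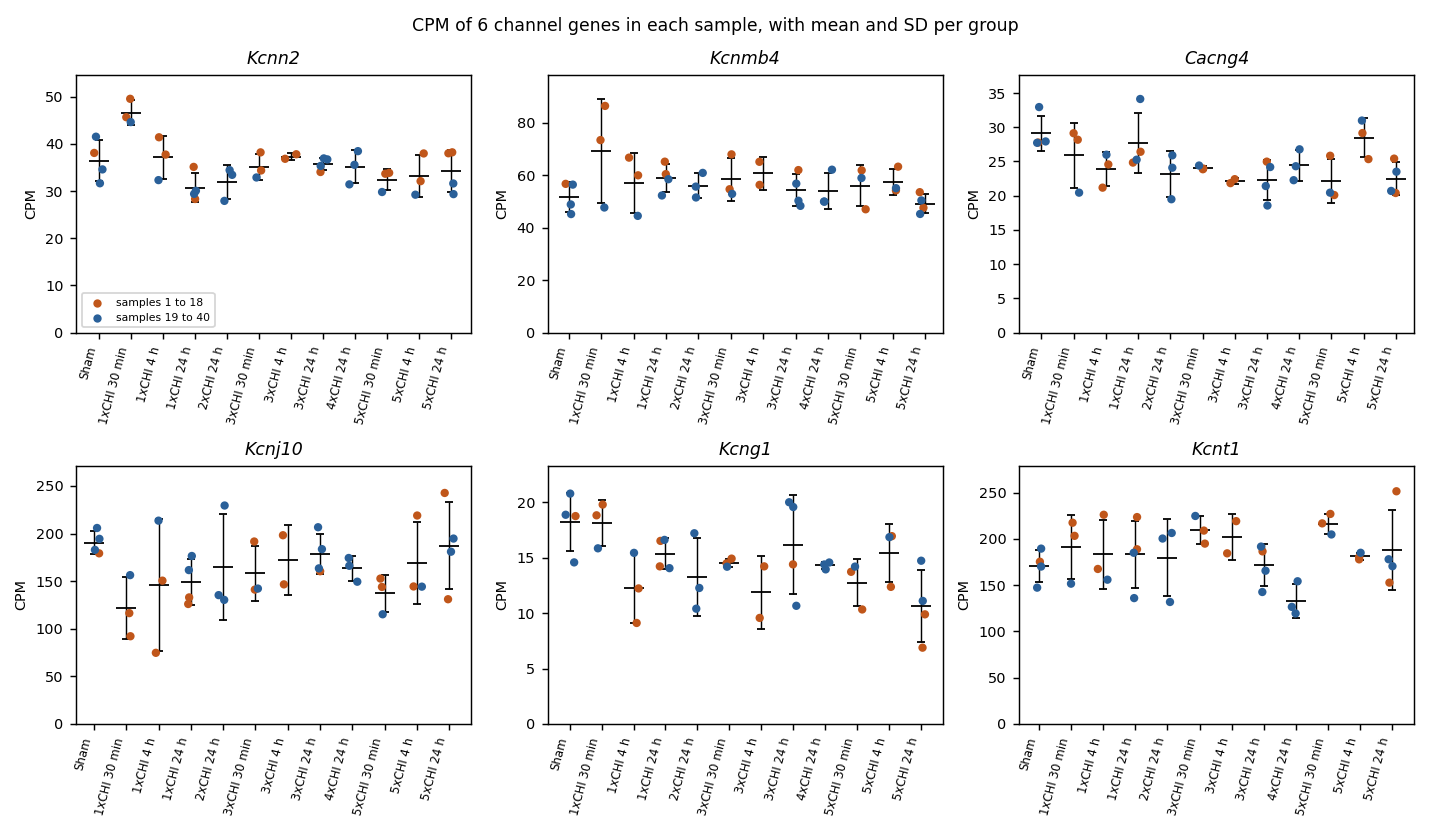
CPM of 6 channel genes in each of the 39 samples (points, 1 panel a gene), with the mean and SD of each injury and time group (lines and bars), orange for samples 1 to 18 and blue for samples 19 to 40. For Kcnn2 the 3 samples at 30 min after 1xCHI lie above all 4 Sham samples, for Cacng4 every sample after 3xCHI lies below all of Sham, and for Kcnt1 the 3 samples at 30 min after 5xCHI lie above the 3 of 4xCHI at 24 h.

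Each time point was then compared with the group before that injury: Sham for the first injury, 2xCHI at 24 h for the third and 4xCHI at 24 h for the fifth. In all 9 comparisons edgeR's quasi-likelihood test called 0 of the 104 members and 0% of all features at an adjusted p under 0.05, and DESeq2 called 0 members. At an unadjusted p under 0.05 there were 10 members at 30 min after 1xCHI (9.62% against 19.7% of all features), 6 at 4 h (5.77% against 10.5%) and 2 at 24 h (1.92% against 6.02%). At 30 min 7 of the 10 were lower (6.71% of all features were) and 3 higher (13%), and at 4 h all 6 were lower (3.57%) and 0 higher (6.96%). After 3xCHI there were 2 at 30 min (1.92% against 1.88%), 0 at 4 h (against 2%) and 11 at 24 h (10.6% against 4.57%), of which 7 were lower (2.13% of all features were) and 4 higher (2.44%). After 5xCHI there were 4 at 30 min (3.85% against 6.36%), 6 at 4 h (5.77% against 5.33%) and 8 at 24 h (7.69% against 6.44%). The comparisons within an injury share their reference samples.

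The median log2 fold change over the members after 1xCHI was -0.18 at 30 min (72 of 104 below 0, against 50.2% of all features), -0.18 at 4 h (83, against 47.3%) and -0.12 at 24 h (79, against 48.5%). For 3xCHI the values were -0.06 at 30 min (63, against 50.5%), -0.08 at 4 h (70, against 51.8%) and 0.04 at 24 h (44, against 52.1%). For 5xCHI they were -0.01 at 30 min (56, against 47.7%), -0.03 at 4 h (60, against 47.5%) and 0.02 at 24 h (50, against 45%). By class at 30 min after 1xCHI, the Kv1 to Kv4 pores and the sodium channel alpha subunits were lowest (both -0.31), followed by the Kv7 and EAG group (-0.27), while the T-type genes were highest (0.17). Among the classes at 4 h after 5xCHI the T-type genes were again highest, at 0.33, for 3 genes that include Cacna1h below.

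At 30 min after 1xCHI, Kcnn2 (SK2) was the member with the smallest p. It had 31.7, 34.6, 38.1 and 41.5 CPM in Sham and 44.6, 45.7 and 49.6 CPM at 30 min, with no overlap. By 24 h it was at 28.3, 29.4, 30.1 and 35.1 CPM, with 3 of the 4 samples below all of Sham and the highest within its range. The log2 fold change at 30 min was 0.35 (SE 0.11, 95% interval 0.13 to 0.57, unadjusted p 0.00278), with an adjusted p of 0.167 by edgeR's quasi-likelihood test, Benjamini-Hochberg adjusted. At 24 h it was -0.25 (SE 0.10, adjusted p 0.703 by the same edgeR test).

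Kcnmb4, the neuronal beta subunit of BK channels, and Cacng2 (stargazin) followed at 30 min with 0.42 (SE 0.15) and 0.29 (SE 0.11). For Kcnmb4 the samples had 47.7, 73.4 and 86.5 CPM against 45.2 to 56.8 CPM in Sham. For Cacng2 they had 169.6, 216 and 238 CPM against 150.4 to 189.6 CPM in Sham. In both, sample 27 lay within Sham and samples 13 and 14 above it, and within samples 19 to 40 alone, where sample 27 is the only one left, the log2 fold changes were -0.074 and -0.053. Without sample 13 they were 0.22 and 0.18.

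At 4 h after 1xCHI the smallest p belonged to Kcnh2 (the ERG channel), with 25.7, 26.1, 30.8 and 31.2 CPM in Sham and 17.1, 20.0 and 27.4 CPM at 4 h. Samples 15 and 16 were below Sham and sample 36 within it, and the log2 fold change was -0.40 (SE 0.14, unadjusted p 0.00674, adjusted p 0.355 by edgeR's quasi-likelihood test, Benjamini-Hochberg adjusted). Kcng1 was at -0.57 (SE 0.22) with 9.12, 12.2 and 15.5 CPM, and Kcna6 (Kv1.6) at -0.31 (SE 0.14) with 69.1, 69.3 and 93.5 CPM against 87.5 to 104 CPM in Sham. Without sample 36 the log2 fold change of Kcnh2 was -0.64 and its adjusted p 0.0245 by the same edgeR test, and without sample 15 the log2 fold change was -0.27. Without sample 36 that of Kcna6 was -0.49. The log2 fold change of Kcng1 ran from -0.88 to -0.24 over the 16 other settings and from -0.80 to -0.40 when 1 sample was left out.

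After the third injury, at 24 h, Kcnab3, another Kv1 beta subunit, had 65.6, 66.7, 85.6 and 132 CPM against 114, 138 and 146 CPM at 24 h after 2xCHI. Sample 23 reached into the reference range and the other 3 lay below it, with a log2 fold change of -0.60 (SE 0.19, unadjusted p 0.00318). The reference was itself on the higher side, at 0.45 (SE 0.22) against Sham, whose samples had 76.3 to 121 CPM. Kcnh6 (an ERG channel) was at 0.62 (SE 0.24) with 1.27 to 2.47 CPM against 1.06 to 1.39 CPM. At 30 min Scn7a (Nax, a sodium sensor of glia) had the smallest p, at -0.77 (SE 0.36) with 0.918 to 1.92 CPM against 1.61 to 3.04 CPM. Over the 16 other settings its log2 fold change ran from -1.37 to -0.56. At 4 h no member was below 0.05, the nearest being Kcnk2 at -0.40 (SE 0.22, unadjusted p 0.0718). With sample 30 in place of sample 1 or of sample 3, Kcnk2 was at -0.11 and -0.14.

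Around the fifth injury, Kcnt1 (Slack) gave the smallest p of any member in any of the 14 pairwise comparisons. It had 119.5, 127 and 154 CPM at 24 h after 4xCHI and 205, 217 and 227 CPM at 30 min after 5xCHI, without overlap. The log2 fold change was 0.70 (SE 0.18, 95% interval 0.33 to 1.07, unadjusted p 5.9e-04), with an adjusted p of 0.780 by edgeR's quasi-likelihood test, Benjamini-Hochberg adjusted. At 4 h it was 0.44 (178, 180.4 and 185 CPM) and at 24 h 0.50 (SE 0.17, 153 to 252 CPM), or 0.58 without samples 10 and 11 and 0.32 without sample 12. The reference was itself low, since Sham samples had 147 to 189.6 CPM.

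At 4 h after 5xCHI, Kcns1 (Kv9.1, a silent subunit) had 19.7, 21.4 and 22.4 CPM against 32.1, 32.2 and 35.1 CPM after 4xCHI, without overlap and with a log2 fold change of -0.65 (SE 0.21, unadjusted p 0.0038, adjusted p 0.894 by edgeR's quasi-likelihood test, Benjamini-Hochberg adjusted). Scn9a was at 0.93 (SE 0.32) with 1.30 to 2.50 CPM against 0.743 to 1.26 CPM. Cacna1h (Cav3.2) was at 0.64 (SE 0.24), with 37.4, 46.1 and 71.0 CPM against 32.0 to 34.4 CPM, the highest value being that of sample 10. Without sample 10 the log2 fold change of Cacna1h was 0.33, and within samples 19 to 40 alone, where sample 32 is the only one left of 5xCHI at 4 h, it was 0.17. At 24 h Kcnf1 (Kv5.1, a silent subunit) had 59.6, 87.7, 99.1 and 103 CPM against 115, 117 and 123 CPM, with every sample below the reference. Its log2 fold change was -0.44 (SE 0.13, unadjusted p 0.00219, adjusted p 0.635 by the same edgeR test), the lowest value being that of sample 11, and it was -0.30 without samples 10 and 11 and -0.24 within samples 19 to 40 alone.

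Tests for any difference followed. Over the time points, edgeR's quasi-likelihood F test called 0 members against 5 of all features (0.0328%), and over the injury numbers at 24 h and for a response that differs between injury numbers it called 0 members and 0% of all features. At an unadjusted p under 0.05 there were 8 members over time points (7.69% against 4.25%), 10 over injury numbers at 24 h (9.62% against 4.83%) and 9 for the difference in response (8.65% against 3.33%), with Kcnn2 and Scn9a among the lowest in p over the time points. DESeq2's likelihood ratio test over the time points called 2 members, with Kcnn2 (adjusted p 0.00946) among them, and 54 of all features (0.355%), where edgeR's adjusted p for Kcnn2 was 0.337. The adjusted p of Kcnn2 ran from 0.00946 to 0.888 over the 14 other settings of this test and from 0.164 to 1.00 when 1 sample was left out. DESeq2 called 0 members in the other likelihood ratio tests.

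A single sample decided the calls after 1xCHI. Without sample 27 at 30 min, which leaves samples 13 and 14, edgeR's quasi-likelihood test called 22 members at a Benjamini-Hochberg adjusted p under 0.05, of which 18 were lower (17.3% against 10.6% of all features) and 4 higher (3.85% against 13%). Higher were Kcnmb4 (0.62, adjusted p 0.00761), Cacng2 (0.42, adjusted p 0.0116), Kcnn2 (0.38, adjusted p 0.0288) and Cacna1h (0.65, adjusted p 0.0462). Lower were several potassium channel pores, such as Kcnc2 (-0.62), Kcng4 (-1.30), Kcnh1 (-1.16), Kcna3 (-2.58) and Kcnd2 (-0.50), and also Scn1a (-0.89), Scn4b (-1.78), Kcnj10 (-0.87), Cacnb4 (-0.78) and Kcnma1 (-0.47). Without sample 36 at 4 h, which leaves samples 15 and 16, it called 5 members, all lower (4.81% against 1.87%), among them Kcnh2 (-0.64), Kcna2 (-0.68), Kcnh7 (-1.09) and Scn4b (-2.15). The median over the members was then -0.24 and -0.33. Samples 27 and 36 are the only ones of their groups numbered 19 to 40, and 3 of the 4 Sham samples carry such numbers, so that injury and sample number cannot be told apart in these calls. Other lists moved with them as well. The mitochondrial list summed to 88840 and 88060 CPM in samples 13 and 14 and to 82530 and 76050 CPM in samples 15 and 16, against 61560 CPM in sample 27, 55680 CPM in sample 36 and 53000 to 57680 CPM in Sham. The ribosomal list summed to 17390, 15750, 15120 and 15010 CPM in samples 13 to 16, against 10300 CPM in sample 27, 9202 CPM in sample 36 and 9691 to 10660 CPM in Sham. The blood list was at 514 and 504 CPM in samples 13 and 14, the highest of the 39 samples, against 86.2 CPM in sample 27 and 172 to 276 CPM in Sham, and the list of meningeal fibroblasts was at 3971 CPM in sample 15 against 664 to 1018 CPM in Sham. The part of these lists in the calls was not tested.

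Sample number moved with many members. Samples 1 to 18 were compared with samples 19 to 40 within groups, by a term for this in the edgeR fit of the injury and time groups. On this term 83 of the 104 members were lower in samples 1 to 18 (79.8%, against 46% of all features). The median fitted log2 difference was -0.18 against 0.03. Mean levels given beside these differences are pooled over groups. The largest differences were in Kcnh5 (-1.38, with mean levels of 7.87 and 18.5 CPM), Kcna3 (-1.13, 1.48 and 3.00 CPM), Scn4b (-1.06, 71.4 and 137 CPM) and Kcna1 (-0.92, 35.8 and 62.4 CPM), and on the other side Cacna1h (0.37, 46.2 and 34.5 CPM). Within Sham alone, Kcnh5 had 10.5 CPM in sample 6 and 11.0, 24.6 and 27.3 CPM in samples 20, 35 and 39. The ribosomal list also differed, with median sums of 13020 and 10390 CPM, and the oligodendrocyte list with 6553 and 5382 CPM. The members have long mRNAs (median exon length 5184 bases against 4336), and the difference was lower in longer genes: over all features its median was 0.15 in the shortest length class, 0.02 in the middle and -0.09 in the longest of 3 classes, and over the members -0.11, -0.14 and -0.25. For 1xCHI against Sham the members had -0.08, -0.10 and -0.19 in the same order, against 0.15, 0.01 and -0.09 over all features. Both properties moved the medians against Sham. With the gene length trend removed these were -0.11, -0.030, -0.076, -0.069 and -0.097 from 1xCHI to 5xCHI. With the 2 ranges of sample numbers as a covariate they were -0.082, -0.14, -0.047, -0.14 and -0.052 in the same order, and with sample number itself as the covariate the median after 3xCHI was -0.017. Within samples 19 to 40 alone they were -0.036, -0.12, -0.072, -0.13 and -0.037, and the median at 30 min after 1xCHI, where sample 27 is then the only injured sample, was -0.052. The part of the ribosomal and oligodendrocyte lists was not tested.

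**Figure D4:**
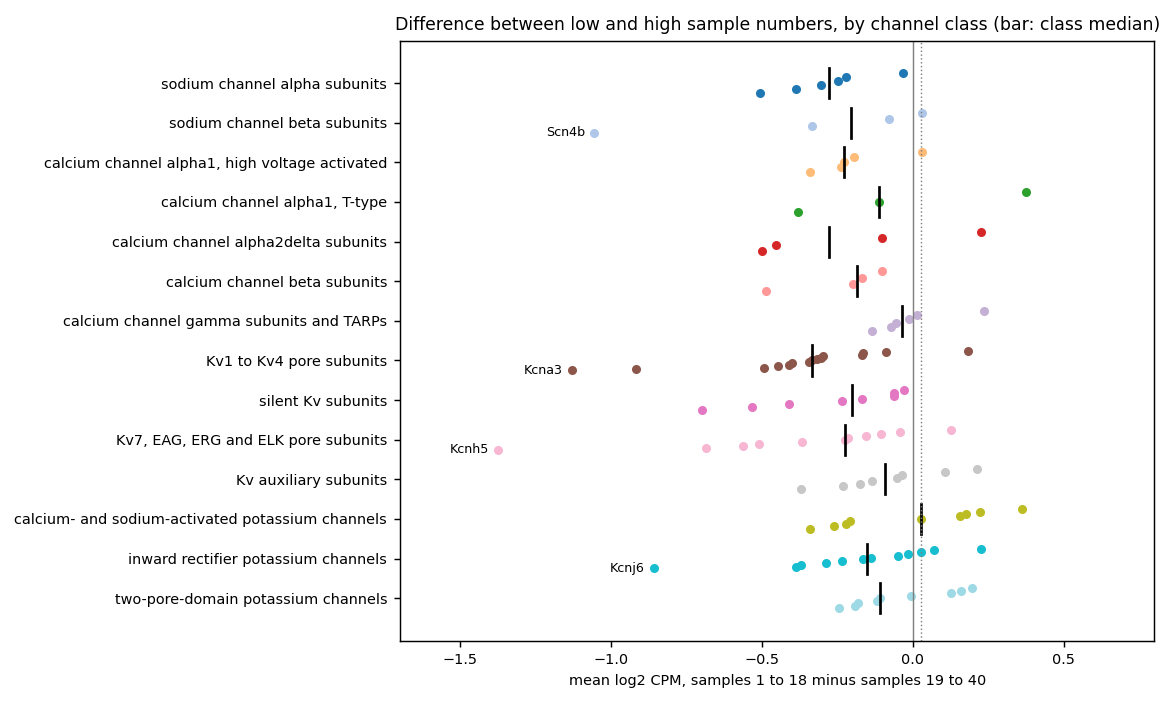
Fitted log2 difference of samples 1 to 18 from samples 19 to 40, within injury and time groups, for each of the 104 channel genes (points) by class. The bar is the class median and the dotted line the median of all features (0.03). The axis label names mean log2 CPM, but the values are those of the fit. Kcnh5, Kcna3 and Scn4b lie lowest, at -1.38, -1.13 and -1.06, and 83 points lie below 0.

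Scn4b and Kcnj13 moved with markers of tissue next to the cortex. Scn4b was highest where a list of striatal genes was: the list summed to 802 CPM in sample 26, 729 in sample 39 and 628 in sample 32, against 308 to 444 CPM in samples 28, 29, 34 and 36 and 131 to 268 CPM in the others, and Scn4b had 319.6, 258 and 192 CPM in those 3 samples. Without the samples whose striatal marker Drd2 exceeded 5 CPM, edgeR's quasi-likelihood test called 1 member at 4 h after 1xCHI, Scn4b itself (log2 fold change -1.66, SE 0.38, Benjamini-Hochberg adjusted p 0.0455), which is 0.962% of the members against 0.696% of all features. This also left out sample 36 and Sham sample 39, and without sample 36 alone Scn4b was already called, at -2.15 (adjusted p 0.0485 by the same test). Kcnj13 (Kir7.1) is a channel of the choroid plexus epithelium. It had 12.5 CPM in sample 31, 7.70 in sample 24 and 6.43 in sample 32, where the choroid plexus list summed to 2510, 860 and 1302 CPM, and 3.84 CPM in sample 12 with a sum of 409 CPM. Sample 15, with 6.12 CPM of Kcnj13, had a choroid plexus sum of 43.3 CPM, and all other samples had 0.263 to 2.27 CPM. Of the 6 choroid plexus genes listed, Ttr and Kl met the count condition and Folr1, Clic6, Aqp1 and Otx2 did not. The fitted log2 fold changes of Kcnj13 were 1.39 after 4xCHI, which holds sample 24, and 1.23 after 5xCHI, which holds samples 12, 31 and 32. The part of neighbouring tissue in these values was not tested.

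**Figure D5:**
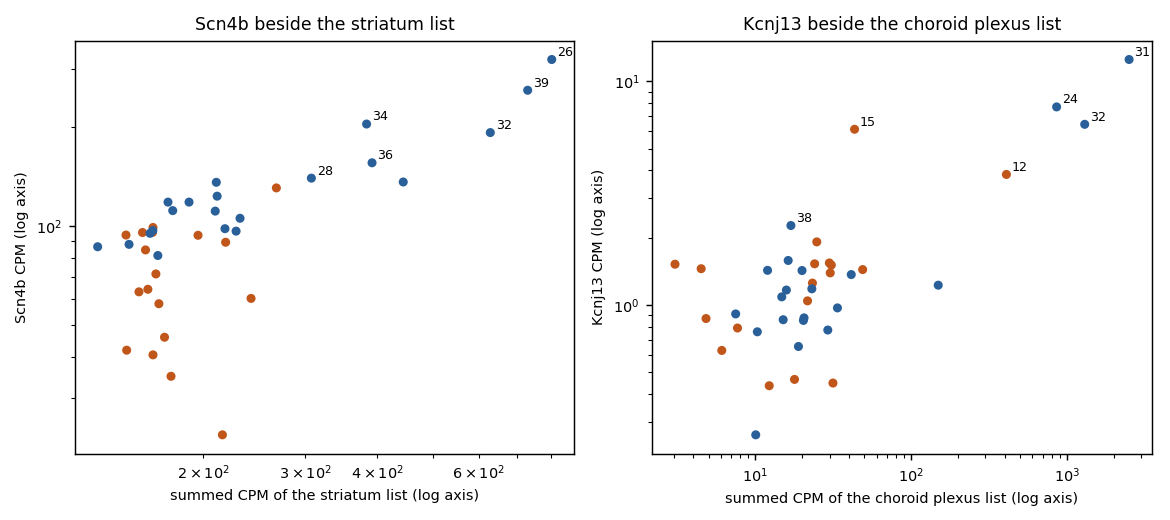
Left, Scn4b (CPM) against the summed CPM of the striatal list in each of 39 samples. Right, Kcnj13 (CPM) against the summed CPM of the choroid plexus list, both on log axes, with samples 1 to 18 in orange and 19 to 40 in blue. Sample 26 is highest for the striatal sum (802) and for Scn4b (319.6), and sample 31 for the choroid plexus sum (2510) and for Kcnj13 (12.5).

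Genes that work with these channels were counted from lists chosen by function. No gene of the 5 lists passed edgeR's quasi-likelihood test in any of the 14 pairwise comparisons (0 called, against 0% of all features). The axon initial segment list (12 of 12 tested), with the anchors of sodium channels and Kv7, had medians from -0.17 to 0.05, and its member Nfasc was at -0.28 after both 2xCHI and 4xCHI (SE 0.08 in the latter, unadjusted p 0.00123). The Kv4 and Kv2 partners (5 of 5) had medians from -0.13 to 0.09, the HCN and sodium leak channels (8 of 9) from -0.17 to 0.10 and the sodium pump subunits (9 of 9), which restore the gradients the channels run down, from -0.06 to 0.18. In the last list Fxyd7 was at 0.63 at 30 min after 1xCHI (unadjusted p 0.00262). Its highest level over all samples was 87.2 CPM in sample 13 of that group, against a median of 42.4 CPM. The calcium release channels and pumps (14 of 14) had the widest medians, from -0.28 after 2xCHI to 0.33 at 24 h after 3xCHI, the latter against the 2xCHI samples. At an unadjusted p under 0.05 after 1xCHI, where 10.9% of all features were higher and 6.33% lower, the axon initial segment list had 0 higher and 1 lower, the Kv partners had 0 higher and 0 lower, the HCN and leak channels had 0 higher and 0 lower, the sodium pump list had 3 higher and 1 lower and the calcium release list had 0 higher and 1 lower.

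Several members lie side by side in the genome, and their reads could in principle be shared where exons overlap. Within 500000 bases of each other were 31 pairs of genes with a matching name, among them Scn3a and Scn2a, Scn1a and Scn9a, and Scn9a and Scn7a on chromosome 2, Scn2b and Scn4b on chromosome 9, and Kcnj9 and Kcnj10 on chromosome 1 (GRCm38). The gap was 8325 bases between Scn2b and Scn4b and 11892 between Kcnj9 and Kcnj10. Neighbours gave different values: after 1xCHI Scn1a was at -0.42 and Scn9a at 0.02, and Kcnj10 at -0.44 and Kcnj9 at -0.10. Kcnip1 overlaps Kcnmb1, and whether the counting used strand is not given in the sources used here.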

How the data were processed

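The authors deposited estimated counts per gene from RNA sequencing of bulk cortex, aligned to mm10 per the submitters' processing notes. The counting tool, its version and its use of strand are not given in the sources used here. Of all values, 4.46% were not whole and were rounded. Exon lengths and coordinates came from GENCODE M21 (GRCm38). The study left out 1 sample at 4 h after 3xCHI without giving its number in the sources used here. Sample 30 was left out here, and the 15224 features with 10 or more counts in at least 35 samples were kept. Library sizes were scaled by TMM, and all features were fitted together by edgeR 4.0.16 quasi-likelihood tests (R 4.3.3, limma 3.58.1) with Benjamini-Hochberg adjustment and a threshold of 0.05. DESeq2 1.42.0 was the alternative tool, and the scripts were tested on simulated data. Python 3.11.15, pandas 2.3.3 and matplotlib 3.10.9 were used for summaries and plots. Members were named from the 3 with the smallest p in each comparison, but not all of these are given in the text. Some members with a matching name are not reported here one by one, though they count in the class and member totals. The members and gene lists were chosen with earlier results of these data known, and other genes are named by level, by role, by spread or by the alternatives after their values were seen. Depth ran from 15926014 to 27859547 counts per sample. Other filters, normalization, covariates for sample number and leaving out each sample were tried. The labels do not say how samples of a group relate beyond being separate, but the study describes the sequenced samples as a subset of 40 females. The p-values therefore measure the spread between these mice.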

Additional observations from a re-analysis of the deposited data

Results flagged for a closer look

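Of 156 values tested for a sample far from the rest of a group of 4, 7 were found, where chance alone gives about 1 in 20. In sample 11 (5xCHI 24 h), the Kv auxiliary subunits summed to 190.3 CPM per kilobase against at least 231 in the other samples of the group, and Scn9a had 0.838 CPM against 1.45 in the nearest sample. In sample 2 (3xCHI 24 h) the K2P channels summed to 75.3 CPM per kilobase, with the nearest sample at 78.5. Cacng4 stood at 34.1 CPM in sample 26 (1xCHI 24 h), where the nearest sample had 26.4, and at 33.0 CPM in Sham sample 39, where the nearest had 27.9. Kcnip1 had 26.3 CPM in Sham sample 39 against 22.2 CPM in the nearest, and Kcns1 had 22.3 CPM in Sham sample 6 against 35.1 CPM. Of the 7 values, 2 were in sample 11, whose glial lists are high as given above, and the part of those markers in these values was not tested.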

How the results depend on the processing

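In all, 75 results were recomputed under up to 16 settings, of which 10 were planned and 6 were added after the values were seen, and without each of 39 samples. Some results could not be computed under every setting. A verdict changed in 14 results. Leaving out 1 sample moved the number of members called between 0 and 22 at 30 min after 1xCHI (22 without sample 27) and between 0 and 5 at 4 h after 1xCHI (5 without sample 36), where the median over the members ran from -0.33 to -0.12. With samples 19 to 40 only, Kcnmb4 (-0.074) and Cacng2 (-0.053) at 30 min and Kcna6 (0.0010) at 4 h after 1xCHI changed direction, the median at 4 h after 1xCHI was 0.014 (sample 27 or 36 is then the only injured sample), and that at 24 h after 5xCHI was 0.16. With sample number as a covariate the median was 0.075 at 4 h after 3xCHI and 0.13 at 30 min after 5xCHI, and with the 2 ranges of sample numbers as a covariate it was 0.10 and 0.16. Other medians near 0 also turned sign: with the same 2 covariates that at 30 min after 3xCHI was 0.037 and 0.077 and that at 4 h after 5xCHI 0.073 and 0.106, and without samples whose Drd2 exceeded 5 CPM that at 24 h after 5xCHI was -0.088. Leaving out 1 sample gave 0.0045 at 4 h after 5xCHI (without sample 24), 0.022 at 30 min after 5xCHI (without sample 24), and -0.084 (without sample 34) to 0.109 (without sample 11) at 24 h after 5xCHI. With sample 30 in place of sample 1 or of sample 3 no count of members called changed, and the median at 4 h after 3xCHI was -0.0045 and 0.016. With the gene length trend removed the median was -0.030 after 2xCHI and -0.013 at 24 h after 3xCHI. Without samples whose Drd2 exceeded 5 CPM, 1 member was called at 4 h after 1xCHI (0.962% against 0.696% of all features), where sample 36 was among those left out, and DESeq2 called 2 over the time points. Apart from the construction of these settings, the cause was not tested. No paired analysis was possible because the replicate numbers are unique sample numbers that the groups do not share. Members near the count minimum, such as Kcne4, Kcnj13, Kcna3 and Scn9a, are limited by depth.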
